A study of Homo sapiens with 6 samples.

Results

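Antisense long non-coding RNAs (lncRNAs) are transcripts made from the DNA strand opposite to another gene, and they are named after that gene with the ending -AS and a number. The members were the genes of the deposited expression table that carry the lncRNA biotype, have such a name and reached a mean count of 30 over the 6 libraries. This gave 239 genes of 1357 antisense lncRNA rows, in a table of 46427 genes. One more row that reached the minimum is not analysed here. Members were selected on this mean count, the only measured value used. It averaged both groups: 209 members had a mean count of at least 30 in each group, 21 only in PBS and 9 only in HMU. The members just inside the minimum were L3MBTL2-AS1 with a mean count of 30, TFAP2A-AS2 with 30.7 and HOXA-AS2 with 31.2, and those just outside were PITRM1-AS1 with 29.8, BABAM2-AS1 with 29.7 and IDH1-AS1 with 29.5. Each member was compared with the gene whose name precedes -AS, called its partner below. A partner was found in the table for 235 members, and 231 of these partners are protein-coding. PAXIP1 is the partner of 2 members, and the partner of FAM198B-AS1 is listed under its current name, GASK1B.

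The libraries came from VK2/E6E7, an established human cell line from vaginal epithelium that carries the papillomavirus genes E6 and E7. The 3 control cultures received PBS, and the 3 treated cultures received the bacterium Lactobacillus salivarius, strain HHuMin-U (HMU). The dose was 1e8 CFU/mL, RNA was taken after 6 h, and the submitters describe the 3 cultures of each group as biological replicates. All cells, controls included, carry E6 and E7 and were grown in a serum-free keratinocyte medium with growth factors, and they represent 1 line. The HMU columns are headed HMO in the table. Each library held 64292566 to 65957584 counts. The 8 squamous epithelial markers, among them KRT5, KRT14 and TP63, summed to 72081 to 72846 normalised counts (CPM) in PBS and 59719 to 71369 CPM in HMU. The 4 leukocyte markers reported here summed to 1.65 to 1.86 CPM in PBS and 4.32 to 7.58 CPM in HMU, nearly all from CD14. The 4 fibroblast markers summed to 132 to 136 and 84.8 to 95.2 CPM, and the 3 endothelial markers to 0.510 to 0.809 and 2.25 to 3.05 CPM, with CDH5 at 0 in PBS. The 2 melanocyte markers summed to 2.78 to 3.90 and 2.34 to 2.47 CPM, with MLANA at 0. These marker sums were scaled by library size alone. On the TMM scale used for every other CPM, the squamous sums were 65491 to 66101 in PBS and 64961 to 79950 in HMU and overlapped. In edgeR, SFN, KRT6A, KRT13 and KRT19 were called higher and DSG3 lower. Of the other markers, CD14, CDH5, PECAM1 and VWF were called higher and COL1A1 and PDGFRB lower. COL1A1 made up most of the fibroblast sum. The part of these shifts in the results below was not tested. HMU replicate 2 stood apart from its group: the chi-square per degree of freedom was 63.7 and 109 against HMU replicates 1 and 3, 13.5 between those, and 4.87 to 5.91 among the PBS libraries.

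Antisense RNAs can act through their transcription or as molecules. Transcribing one strand can hinder or open the promoter of the other, the RNA can pair with the sense transcript or bring chromatin proteins to the locus, and many antisense genes start at a shared two-way promoter. Others work away from their locus, for instance by binding microRNAs or proteins. In epithelial cells they have been described beside genes of differentiation, the cell cycle and inflammation.

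Gene positions in RefSeq on GRCh38.p14, with strands from RefSeq or GENCODE 29, placed 228 of the 235 pairs on opposite strands, and no placed pair lay on the same strand. The starts of 117 pairs lay within 2000 bases of each other on opposite strands (head to head). This class holds pairs that point apart and pairs that overlap at their starts. Another 47 pairs overlapped at their ends (tail to tail), 29 antisense genes lay inside the partner and 16 partners lay inside the antisense gene. In 11 pairs the start sides overlapped with starts farther apart, and 8 pairs did not overlap. These 3 head-to-head promoter pairs are shown because their pairs behaved in 3 ways in the data below: both genes rose, the antisense RNA fell without a call for its partner, and the antisense RNA fell while its partner rose. Each window runs from 250 bases before to 50 bases after the start in RefSeq and is written along its own gene's strand. Capitals mark a loose NF-kB pattern on either strand, which is 3 G letters, any 5 letters and 2 C letters. The ELF3 window is chr1:202010337-202010636 on the plus strand and the ELF3-AS1 window is chr1:202010304-202010603 on the minus strand, with starts 234 bases apart and 267 shared bases. The capitals in both ELF3 windows are the same stretch of DNA read from each strand. The KTN1 window is chr14:55579957-55580256 on the plus strand and the KTN1-AS1 window is chr14:55580043-55580342 on the minus strand, with starts 115 bases apart and 214 shared bases. The FBXL19 window is chr16:30922601-30922900 on the plus strand and the FBXL19-AS1 window is chr16:30923220-30923519 on the minus strand, with starts 418 bases apart and no shared bases. FBXL19-AS1 starts downstream of the FBXL19 start, so these genes overlap at their starts, while the ELF3 and KTN1 pairs point apart.
ELF3: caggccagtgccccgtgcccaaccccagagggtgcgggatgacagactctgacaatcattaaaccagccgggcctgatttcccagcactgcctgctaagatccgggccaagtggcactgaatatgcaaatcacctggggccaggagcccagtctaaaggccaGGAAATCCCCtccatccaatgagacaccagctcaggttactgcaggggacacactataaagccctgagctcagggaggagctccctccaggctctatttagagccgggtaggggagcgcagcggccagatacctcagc
ELF3-AS1: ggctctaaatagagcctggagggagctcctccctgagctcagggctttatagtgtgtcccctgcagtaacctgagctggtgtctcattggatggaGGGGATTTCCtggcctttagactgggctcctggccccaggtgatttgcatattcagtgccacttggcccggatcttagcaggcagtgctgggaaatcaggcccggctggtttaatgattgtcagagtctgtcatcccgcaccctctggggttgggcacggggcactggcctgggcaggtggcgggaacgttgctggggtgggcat
KTN1: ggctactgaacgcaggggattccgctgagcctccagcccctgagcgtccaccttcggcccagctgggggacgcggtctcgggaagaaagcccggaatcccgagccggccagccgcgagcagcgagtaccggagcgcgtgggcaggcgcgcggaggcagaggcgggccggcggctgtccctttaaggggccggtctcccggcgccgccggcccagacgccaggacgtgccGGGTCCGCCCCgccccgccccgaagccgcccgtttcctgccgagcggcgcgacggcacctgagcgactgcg
KTN1-AS1: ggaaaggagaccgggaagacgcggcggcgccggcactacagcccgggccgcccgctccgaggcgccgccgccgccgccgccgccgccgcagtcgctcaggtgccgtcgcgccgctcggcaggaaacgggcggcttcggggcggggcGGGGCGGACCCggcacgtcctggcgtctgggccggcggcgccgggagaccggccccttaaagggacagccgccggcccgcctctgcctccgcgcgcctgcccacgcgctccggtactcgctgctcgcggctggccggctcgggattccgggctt
FBXL19: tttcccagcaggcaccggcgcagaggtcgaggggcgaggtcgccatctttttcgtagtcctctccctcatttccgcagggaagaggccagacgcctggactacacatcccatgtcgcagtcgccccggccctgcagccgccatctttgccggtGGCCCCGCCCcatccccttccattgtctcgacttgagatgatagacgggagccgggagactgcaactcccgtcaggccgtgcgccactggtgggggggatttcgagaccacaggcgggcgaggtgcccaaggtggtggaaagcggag
FBXL19-AS1: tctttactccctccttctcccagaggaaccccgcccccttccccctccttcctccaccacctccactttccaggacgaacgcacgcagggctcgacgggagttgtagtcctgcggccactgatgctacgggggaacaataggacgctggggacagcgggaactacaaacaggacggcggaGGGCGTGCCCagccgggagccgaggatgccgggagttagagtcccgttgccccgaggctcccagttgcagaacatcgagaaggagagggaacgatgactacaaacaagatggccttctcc

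This NF-kB pattern stood in 58% of the 27305 promoters in the RefSeq table. They stood in 146 of the 198 member promoters found there (73.7%), in 14 of the 21 promoters of members called higher (66.7%), in 53 of the 75 of members called lower (70.7%) and in 145 of 203 partner promoters (71.4%). The AP-1 letters TGANTCA stood in 7.76% of all promoters and 2.53% of member promoters, the STAT letters TTCNNNGAA in 7.88% and 7.58%, and the ATF4 letters TGATGNAA in 3.67% and 0.505%. The E-box CACGTG stood in 7.43% and 8.59%, and the NF-Y letters CCAAT in 35.7% and 32.3%. Both strands were searched, and these are counts of letters in a window, not binding sites.

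After 6 h with HMU, more antisense lncRNAs fell than rose. Of the 239 members, all of which passed the filter on low counts, 28 rose and 82 fell at an adjusted p under 0.05 in edgeR's quasi-likelihood test, and 129 passed in neither direction. The falls made up 34.3% of members against 24.9% of all 17990 genes tested, and the rises 11.7% against 24.8%. In either direction, 110 members and 49.7% of all genes were called. The members that reached the minimum through 1 group had to differ: of the 21 that reached it only in PBS 14 fell and none rose, and all 9 that reached it only in HMU rose. Among the 209 that reached it in both groups, 19 rose (9.09%) and 68 fell (32.5%), with a median log2 fold change of -0.19. The change was at least 2-fold in 17 of the rises and 31 of the falls. The largest rises were beside ELF3, UCKL1 and PAX8, and the largest falls beside TPRG1, WEE2 and KIF9. In 39 members all HMU libraries lay above all PBS libraries and in 99 all lay below, where the shares over all genes were 30.3% and 32%, or 62.3% together. The median log2 fold change was -0.24 for members and -0.002 for all genes tested. These values depend on how libraries are put on 1 scale. TMM (trimmed mean of M-values) scaling, used here, gave factors of 1.10 to 1.11 in PBS and 0.893 to 0.920 in HMU. Scaled by library size alone, the median of all genes tested was -0.28 and that of members -0.52, and 19 members were higher and 121 lower. Each of the 28 rises and 82 falls kept its sign when any 1 library was left out, and 22 and 60 kept their call in every such fit. Without HMU replicate 2, 34 members were higher and 89 lower. In these bulk samples, fewer cells of a type and less RNA per cell cannot be told apart.

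**Figure D1:**
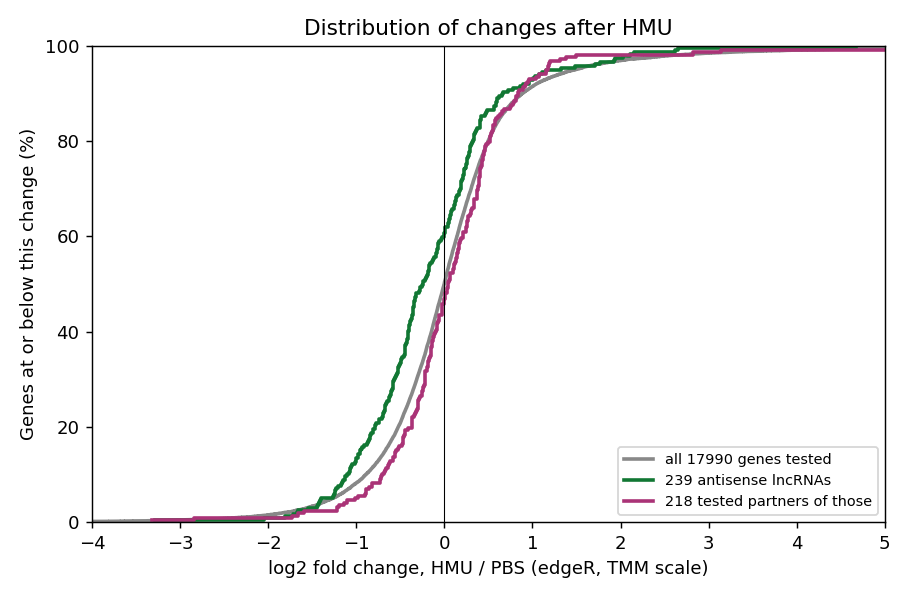
Percentage of genes (vertical axis) whose log2 fold change between HMU and PBS lay at or below the value on the horizontal axis, for all 17990 genes tested, the 239 antisense lncRNAs and the partners in 218 tested pairs. The antisense curve crosses the 50% level at -0.24, to the left of all genes at -0.002, and the partner curve at 0.04.

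Set beside other genes, the balance of rises and falls was not seen in members alone. Among protein-coding genes with a mean count of at least 30 and no more than 1000, a range chosen after the values were seen, 18.6% rose and 35.8% fell, with a median log2 fold change of -0.18. Among lncRNAs of other names with a mean count of at least 30, 227 of 986 rose and 273 fell, with a median of -0.11. Of the 70 tested divergent transcripts (-DT), which are named for starting opposite a neighbouring gene, 8 rose and 23 fell, with a median of -0.44. Of 299 tested LINC genes 63 rose and 68 fell, of 56 tested host genes of small RNAs (HG) 17 rose and 10 fell, and of 12 tested intronic or overlapping transcripts 2 rose and none fell. Antisense rows under the minimum count gave 19 rises and 23 falls among the 164 tested.

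Members together took 0.106% ± 0.00117 (SD, n = 3) of all counts in PBS and 0.0789% ± 0.00267 (SD, n = 3) in HMU. The 3 HMU values, 0.0758% to 0.0806%, all lay below the 3 PBS values, 0.105% to 0.107%. Such shares are scaled by library size alone, where the median log2 fold change was -0.28 for all genes tested and -0.52 for members. How much of the lower share goes with that shift of all genes was not tested. Without OIP5-AS1 the shares were 0.0886% ± 0.000849 and 0.0689% ± 0.00112 (SD, n = 3 each).

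Of the 8 largest rises, ELF3-AS1, UCKL1-AS1, PAX8-AS1, PTGES2-AS1 and TFAP2A-AS2 reached a mean count of 30 only in HMU, the group where they are high, so their difference goes with how they were chosen and is given as a description. The partner of ELF3-AS1 is ELF3, an ETS-family transcription factor of epithelia. ELF3-AS1 had counts of 0, 0 and 9 in PBS and of 75, 54 and 70 in HMU. All of its PBS counts came from replicate 3, and the groups did not overlap. Its fitted log2 fold change was 4.68 ± 0.71 (SE), with an adjusted p of 0.00127 (edgeR), and the size of that fit rests on so few PBS counts. ELF3 itself went from 0.438, 0.363 and 0.499 CPM in PBS to 262, 225 and 242 CPM in HMU, a log2 fold change of 9.12 ± 0.14 (SE; edgeR adjusted p = 1.44e-07). Their shared promoter window is printed above. The antisense to partner ratio fell by 4.32 on the log2 scale (edgeR adjusted p = 0.0136), but without PBS replicate 3 it was 8.32 in the opposite direction and not called (adjusted p = 0.582), so its direction rests on that library.

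UCKL1-AS1, beside a gene of the uridine-cytidine kinase family, had 0.0989, 0.196 and 0.236 CPM in PBS and 1.16, 1.04 and 1.17 CPM in HMU. Its log2 fold change was 2.66 ± 0.28 (SE; edgeR adjusted p = 0.000221), against 0.55 for UCKL1, whose call was lost under scaling by library size and on TPM values. PAX8-AS1 lies inside PAX8, which encodes a paired-box factor of thyroid, kidney and the genital tract. Its values were 0.537, 0.321 and 0.347 CPM in PBS and 3.22, 2.38 and 1.85 CPM in HMU. The log2 fold change was 2.62 ± 0.28 for PAX8-AS1 and 1.15 for PAX8 (edgeR adjusted p = 0.000238 and 0.000875), and the ratio between them rose by 1.46. UCKL1-AS1 and PAX8-AS1 reached the minimum count only in HMU, so their test results are given as a description.

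KLRK1-AS1 had 2.49, 2.36 and 2.12 CPM in PBS and 9.72, 12.0 and 9.22 CPM in HMU. It rose by 2.15 ± 0.14 on the log2 scale (edgeR adjusted p = 1.57e-05). KLRK1, which encodes the natural killer cell receptor NKG2D and lies inside the antisense gene, had 0 counts in all 6 libraries. RARA-AS1, inside the gene of retinoic acid receptor alpha, had 0.989, 0.685 and 0.999 CPM in PBS and 3.53, 4.46 and 3.53 CPM in HMU. RARA lay between 20.1 and 21.2 CPM in PBS and between 18.7 and 19.7 CPM in HMU and was not called, with a log2 fold change of -0.12. The ratio of RARA-AS1 to RARA rose by 2.22 ± 0.21 (SE; edgeR adjusted p = 0.000298).

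PTGES2-AS1, head to head with a prostaglandin E synthase gene, had 0.297, 0.335 and 0.485 CPM in PBS and 1.50, 1.81 and 1.29 CPM in HMU, a log2 fold change of 2.03 ± 0.24. PTGES2 had a log2 fold change of 0.38, and it lost its call without HMU replicate 1 or any 1 PBS library and turned to -0.07 on TPM values. IRF1-AS1, beside the gene of interferon regulatory factor IRF1, had 0.848, 0.699 and 0.583 CPM in PBS and 2.34, 3.12 and 2.66 CPM in HMU. IRF1-AS1 and IRF1 rose by 1.93 and 1.50 on the log2 scale, and their ratio was not called (0.45; edgeR adjusted p = 0.149). TFAP2A-AS2 rose from 0.170, 0.224 and 0.222 CPM to 0.742, 0.783 and 0.841 CPM, a log2 fold change of 1.93 ± 0.22. TFAP2A, the AP-2 alpha factor of keratinocytes, had 151, 149 and 158 CPM in PBS and 122, 108 and 140 CPM in HMU. It was called lower by 0.31, a call lost without HMU replicate 1 or any 1 PBS library.

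**Figure D2:**
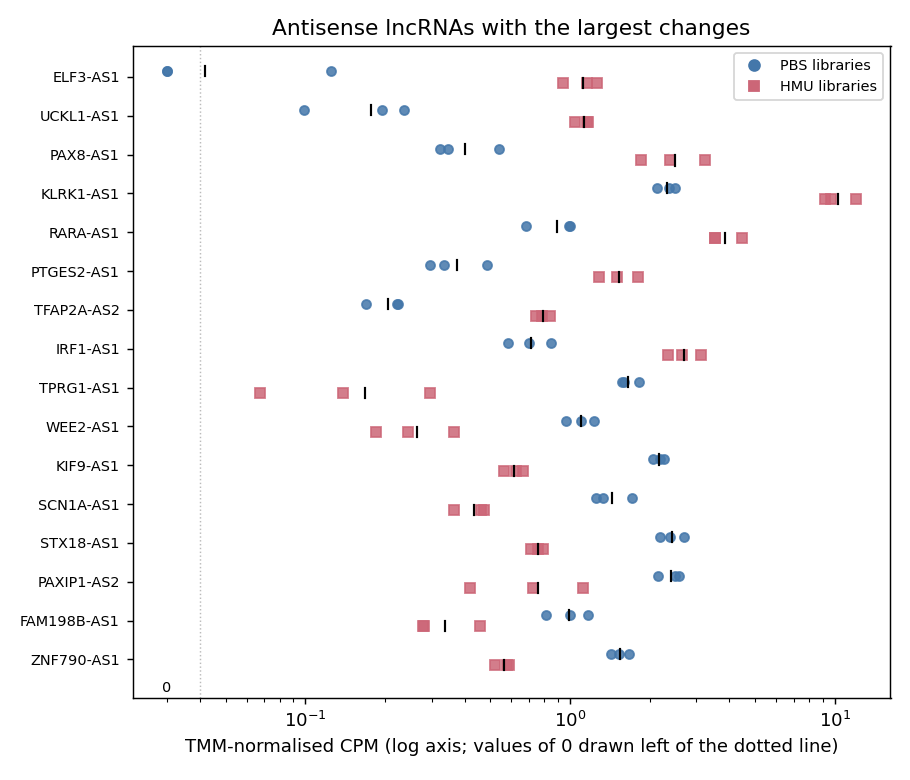
TMM-normalised CPM of the 8 called antisense lncRNAs with the largest rise (top) and the 8 with the largest fall (bottom) on a log axis, with circles for PBS libraries, squares for HMU libraries and bars for group means. Absence of overlap between the groups was a condition for listing these 16 members. The 2 ELF3-AS1 values of 0 are drawn left of the dotted line.

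Of the 8 largest falls, TPRG1-AS1, WEE2-AS1, SCN1A-AS1 and FAM198B-AS1 reached a mean count of 30 only in PBS, where they are high, and the same reserve applies to them. The largest fitted fall was that of TPRG1-AS1, named for a gene that p63, a regulator of squamous epithelia, controls. TPRG1-AS1 had 1.60, 1.82 and 1.57 CPM in PBS and 0.0675, 0.139 and 0.297 CPM in HMU. The HMU values stand on counts of 4, 8 and 18. It fell by 3.28 ± 0.37 on the log2 scale (SE; edgeR adjusted p = 0.000288). TPRG1 had 8.78 to 9.75 CPM in PBS and 6.04 to 6.55 CPM in HMU and fell by 0.56, so that the ratio of the pair fell by 2.73 ± 0.39 (SE; edgeR adjusted p = 0.00106). In RefSeq the pair does not overlap.

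Some antisense RNAs fell where their partner was scarcely transcribed. WEE2-AS1 went from 1.10, 0.964 and 1.23 CPM to 0.186, 0.244 and 0.363 CPM, a fall of 2.05 ± 0.26 on the log2 scale, while WEE2, an oocyte kinase, had 4 counts in 1 PBS library and 0 elsewhere. SCN1A-AS1 went from 1.33, 1.26 and 1.72 CPM to 0.472, 0.365 and 0.462 CPM, a fall of 1.72 ± 0.21, while SCN1A, a neuronal sodium channel gene, likewise had 4 counts in 1 PBS library and 0 elsewhere. In both, the groups of the antisense RNA did not overlap, which was a condition for listing them. KIF9-AS1 had 2.26, 2.18 and 2.05 CPM in PBS and 0.624, 0.661 and 0.561 CPM in HMU. The kinesin gene KIF9 had 0.636, 0.810 and 0.721 CPM in PBS and 0.827, 1.44 and 0.643 CPM in HMU, with overlapping groups. KIF9-AS1 fell by 1.81 ± 0.15, KIF9 was not called (0.42), and the ratio fell by 2.16 ± 0.26 (SE; edgeR adjusted p = 0.000538).

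STX18-AS1 stands head to head with a gene for a membrane-fusion protein of the endoplasmic reticulum. It went from 2.69, 2.19 and 2.39 CPM to 0.759, 0.714 and 0.792 CPM, a fall of 1.68 ± 0.15, while STX18 was not called (-0.26). PAXIP1-AS2 went from 2.49, 2.15 and 2.58 CPM to 0.725, 0.418 and 1.12 CPM, a fall of 1.66 ± 0.30, while PAXIP1, a DNA-damage response gene, was not called (-0.22). In HMU, PAXIP1-AS2 was lowest in replicate 2 and highest in replicate 3. FAM198B-AS1 went from 1.17, 0.810 and 0.999 CPM to 0.455, 0.278 and 0.280 CPM, a fall of 1.55 ± 0.26. Its partner GASK1B, a Golgi kinase-like gene, fell by 2.84, so that the ratio rose by 1.33, a call lost without HMU replicate 1 (edgeR adjusted p = 0.0614). KTN1-AS1, chosen after its values were seen for its printed promoter, had 1.92, 2.08 and 1.84 CPM in PBS and 0.776, 0.818 and 0.594 CPM in HMU. It fell by 1.42 ± 0.17, while KTN1, a kinesin-anchoring protein gene, was not called (-0.16), and the ratio fell by 1.26 ± 0.20 (SE; edgeR adjusted p = 0.00186). Scaled by library size alone or tested on TPM values, STX18, PAXIP1 and KTN1 were called lower, as was RARA above. STX18 was also called lower with DESeq2, STX18 and KTN1 without HMU replicate 2, and PAXIP1 without HMU replicate 3.

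Of the 5 members of highest level, OIP5-AS1 fell in edgeR and the other 4 were not called. Levels here are in TPM, a unit that divides by transcript length. OIP5-AS1, a conserved lncRNA also called Cyrano that binds the microRNA miR-7 in mice, had 42.8 ± 1.81 TPM in PBS and 22.8 ± 5.07 TPM in HMU (SD, n = 3 each). Its counts were 10990, 11159 and 11901 in PBS and 6760, 5229 and 7588 in HMU, with no overlap. OIP5-AS1 fell by 0.53 ± 0.12 on the log2 scale of normalised counts (SE; edgeR adjusted p = 0.00703), and the kinetochore gene OIP5, tail to tail with it, fell by 0.83. Their ratio was not called (0.31; edgeR adjusted p = 0.277) except without HMU replicate 2, where it rose by 0.49 (adjusted p = 0.0231). THAP9-AS1 had 44.0 ± 2.41 and 36.3 ± 3.73 TPM, EPB41L4A-AS1 32.1 ± 2.17 and 24.3 ± 2.54, FGD5-AS1 31.2 ± 0.378 and 25.8 ± 5.69, and NUTM2A-AS1 21.8 ± 0.892 and 17.9 ± 1.82 (SD, n = 3 each). None of these 4 was called, with log2 fold changes of 0.12, 0.01, 0.12 and 0.11 on the TMM scale, which turned negative under scaling by library size. Without HMU replicate 2, THAP9-AS1 and FGD5-AS1 were called higher (0.15 and 0.23), and tested on TPM values THAP9-AS1, EPB41L4A-AS1 and NUTM2A-AS1 were called lower. NUTM2A fell by 1.14 while NUTM2A-AS1 was not called, and their ratio rose by 1.25.

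Most partners were more abundant than their antisense RNA. The median level was 2.12 TPM for antisense RNAs and 15.6 TPM for partners in PBS, and 1.59 and 11.1 TPM in HMU. The antisense RNA stood above its partner in 56 of 235 pairs in PBS and in 59 in HMU, and the partner was at least 10 times higher in 93 and 106 pairs. The median antisense level was 15.5% of the partner's in PBS and 11.4% in HMU.

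Partners moved in both directions. Of 217 distinct partners that passed the filter on low counts, 70 rose (32.3%, against 24.8% of all genes) and 50 fell (23.0%, against 24.9%), with a median log2 fold change of 0.04. Under scaling by library size 35 rose and 88 fell. Of the 218 pairs in which both genes passed the filter, both rose in 13 and both fell in 20. The antisense RNA fell and the partner rose in 18, and the reverse was called in 2. Over all 218 pairs, 24 antisense RNAs rose and 76 fell, and 70 partners rose and 50 fell. Whether opposite calls were more or fewer than unrelated calls would give was not tested. Opposite pairs were not counted under other scalings. The antisense RNA rose or fell in 47 pairs in which the partner was not called, the partner alone was called in 67, and neither in 51. The change of the ratio between antisense and partner counts was then tested, which does not depend on the scaling between libraries. Over all 367 antisense pairs in the table whose genes both passed the filter, the ratio rose in 11.7% and fell in 22.1% (edgeR, partner count as offset). Among the 218 member pairs it rose in 30 and fell in 67, against 33.8% of all pairs in either direction. The 367 pairs include these 218, and nearly all the rest have antisense rows under the minimum count. Without PBS replicate 3 the ratio fell in 44 member pairs, and 66 of the 67 falls kept their sign whichever library was left out, ELF3-AS1 being the exception. The log2 fold changes of antisense RNA and partner had a Pearson r of 0.37 and a Spearman rho of 0.25 across the 218 pairs, which share 6 libraries, and 0.20 and 0.24 without ELF3.

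**Figure D3:**
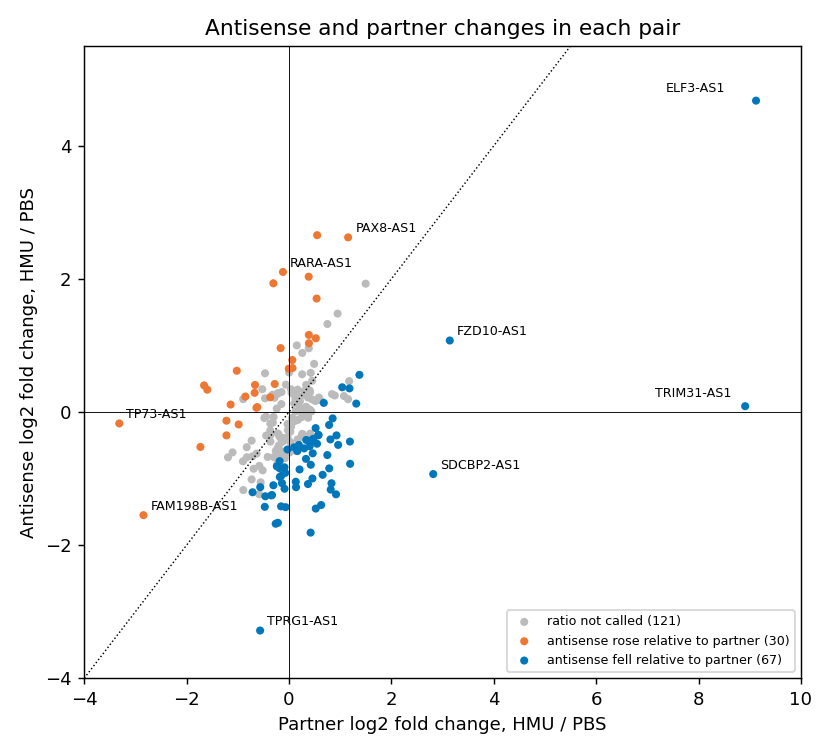
Log2 fold change between HMU and PBS of the partner (horizontal axis) and of the antisense RNA (vertical axis) in 218 pairs, coloured by the call of the ratio, with the dotted line marking equal change. The ratio rose in 30 pairs and fell in 67; the position of TRIM31-AS1 along the horizontal axis is a fitted value against 0 counts in PBS.

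Some partners moved without a call for their antisense RNA. TP73, a relative of the tumour suppressor p53, had 27.0, 25.0 and 24.9 CPM in PBS and 2.29, 2.92 and 2.51 CPM in HMU, a log2 fold change of -3.32 ± 0.11 (SE; edgeR adjusted p = 8.30e-07). TP73-AS1, which overlaps its end, had 26.6, 27.3 and 25.7 CPM in PBS and 24.2, 23.0 and 23.5 CPM in HMU. Its values in HMU all lay below PBS, but it was not called (-0.17; edgeR adjusted p = 0.0666), except when scaled by library size alone, on TPM values or without HMU replicate 2. The ratio rose by 3.15 ± 0.16 (SE; edgeR adjusted p = 4.11e-06), the largest rise among member pairs. TRIM31, a ubiquitin ligase gene, gave the largest fitted fall of the ratio. TRIM31 had 0 counts in each PBS library and 55, 53 and 55 counts in HMU, while TRIM31-AS1 had counts of 54, 56 and 63 in PBS and 64, 44 and 44 in HMU. Against a floor of 3 counts per PBS library, TRIM31 was at least 21.9-fold higher in HMU and the ratio at least 20.6-fold lower. TRIM31-AS1 itself was not called (0.09; edgeR adjusted p = 0.746). AGAP2-AS1 had 2.88, 3.05 and 3.43 CPM in PBS and 2.78, 5.99 and 3.05 CPM in HMU, high in HMU replicate 2 alone, and was not called. AGAP2, a GTPase-activating protein gene, lay at or below 0.325 CPM in every library. Its call lower was lost when any 1 PBS library was left out, and the ratio of the pair rose by 2.24 ± 0.49 (SE; edgeR adjusted p = 0.00893).

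Among pairs called in opposite directions, SDCBP2 and its antisense RNA lay farthest apart. SDCBP2, which encodes the adaptor syntenin-2, had 3.17, 2.64 and 2.26 CPM in PBS and 21.0, 22.3 and 13.6 CPM in HMU. SDCBP2-AS1 had 1.47, 1.30 and 1.37 CPM in PBS and 0.607, 0.853 and 0.709 CPM in HMU. SDCBP2 rose by 2.82 ± 0.22 and SDCBP2-AS1 fell by 0.93 ± 0.18 on the log2 scale, and the ratio fell by 3.72 ± 0.26 (SE; edgeR adjusted p = 3.70e-05). FBXL19-AS1 had 2.43, 3.14 and 2.83 CPM in PBS and 1.32, 0.940 and 1.30 CPM in HMU. FBXL19, an F-box gene whose promoter is printed above, had 32.9, 32.2 and 33.7 CPM in PBS and 59.0, 71.3 and 56.5 CPM in HMU. Neither gene's groups overlapped, and the ratio fell by 2.13 ± 0.24 (SE; edgeR adjusted p = 0.000404).

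The opposite pairs described next are only part of the 20 called, and PXN, NIFK, ELOA and others are left out. GRHL3, a grainyhead factor of epidermal barrier formation, had 52.1, 49.4 and 55.0 CPM in PBS and 99.6, 68.7 and 107 CPM in HMU. GRHL3-AS1 had 1.09, 1.23 and 1.25 CPM in PBS and 0.506, 0.400 and 0.676 CPM in HMU. GRHL3 rose by 0.81 and GRHL3-AS1 fell by 1.17 on the log2 scale, and the ratio fell by 1.98. HLA-F, a non-classical class I molecule, had 19.3, 19.4 and 20.1 CPM in PBS and 44.0, 51.5 and 39.0 CPM in HMU. HLA-F-AS1 had 2.02, 1.76 and 1.64 CPM in PBS and 1.08, 0.835 and 1.24 CPM in HMU. HLA-F rose by 1.19 and HLA-F-AS1 fell by 0.78, and the ratio fell by 1.94. TBC1D8-AS1, which reached a mean count of 30 only in PBS, was called lower (-1.07; edgeR adjusted p = 0.0352), a call lost without HMU replicate 3 or any 1 PBS library, beside a rise of 0.83 in TBC1D8. ATP2A1-AS1 fell by 0.85 beside a rise of 0.79 in ATP2A1, a muscle calcium pump gene. AFAP1-AS1 fell by 0.94 beside a rise of 0.66 in AFAP1, an actin-filament protein gene whose call was lost without PBS replicate 3 or HMU replicate 1. GABPB1-AS1 fell by 0.65, a call lost without PBS replicate 2, beside a rise of 0.75 in GABPB1, a subunit of an ETS-family factor. ZNF790-AS1 went from 1.53, 1.68 and 1.43 CPM to 0.590, 0.522 and 0.577 CPM beside a rise of 0.52 in ZNF790, a call of the partner that was lost under scaling by library size. The antisense RNA rose and the partner fell at TFAP2A, described above, and at CARD8, an inflammasome gene chosen after its values were seen. CARD8-AS1 had 0.664, 0.866 and 0.888 CPM in PBS and 1.18, 1.22 and 1.32 CPM in HMU, and CARD8 5.43, 5.42 and 4.73 CPM and then 2.43, 2.19 and 3.05 CPM. The changes were 0.62 and -1.02 on the log2 scale (edgeR adjusted p = 0.0205 and 0.000952). On TPM values the rises of GRHL3, ATP2A1, GABPB1, AFAP1 and ZNF790 were not called, and by library size alone those of AFAP1 and ZNF790 and that of CARD8-AS1 were not.

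**Figure D4:**
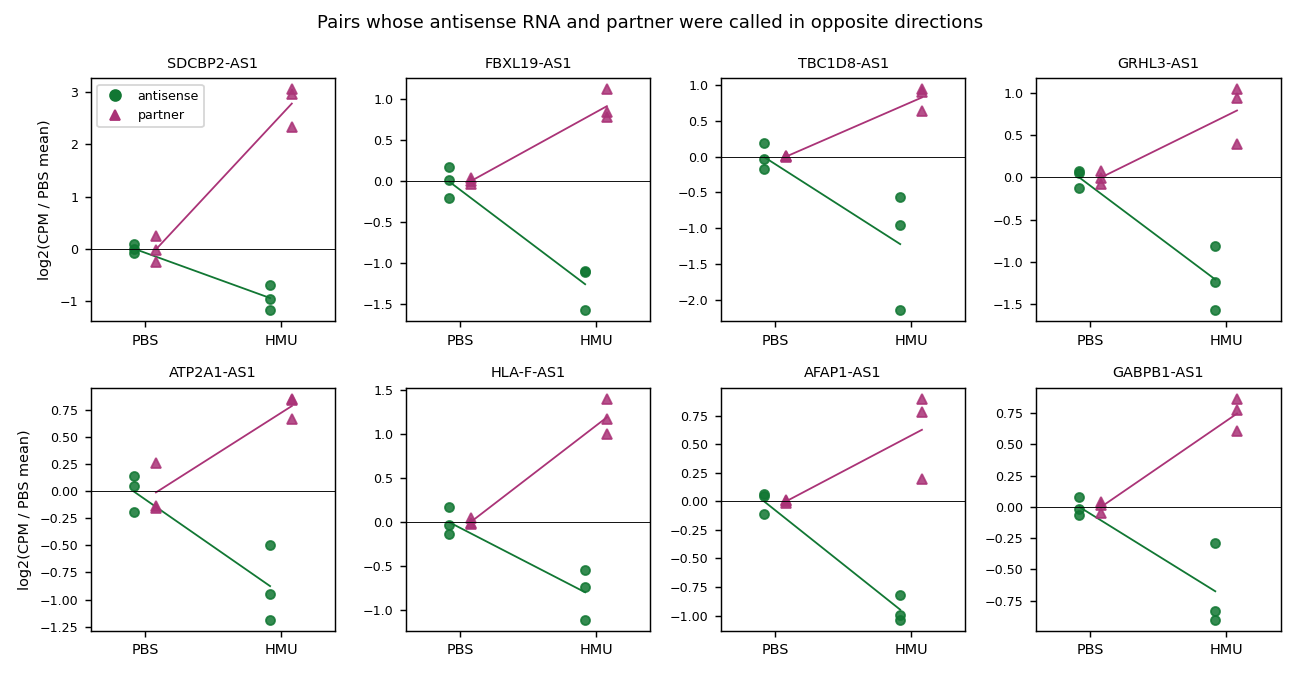
Log2 of CPM over the PBS mean of the same gene (vertical axis) for 8 pairs called in opposite directions, with circles for the antisense RNA, triangles for the partner, 1 point per library and lines joining group means. In every panel the 3 HMU values of the antisense RNA lie below 0 and those of the partner above it, with TBC1D8-AS1 the most spread.

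Several antisense RNAs known by name from other work were read whatever their values. CDKN2B-AS1, also called ANRIL, had 1.96, 2.17 and 1.50 CPM in PBS and 1.65, 1.69 and 1.80 CPM in HMU and was not called (-0.13). CDKN2B, the cell-cycle inhibitor p15 whose gene lies within it, fell from 125, 127 and 144 CPM to 56.8, 48.2 and 64.7 CPM, a log2 fold change of -1.22. SLC16A1, the lactate and pyruvate transporter MCT1, rose from 170, 164 and 167 CPM to 331, 279 and 342 CPM. SLC16A1-AS1, head to head with it, had a log2 fold change of -0.35 and was not called (edgeR adjusted p = 0.0650) except by library size alone, on TPM values, with the replicate block or without HMU replicate 3, and the ratio fell by 1.28. FOXD2-AS1 fell by 0.49, and the forkhead gene FOXD2 was called higher by 0.96, a call lost by library size alone, on TPM values and without HMU replicate 1, PBS replicate 1 or PBS replicate 3. PSMB8-AS1 was not called (0.22) while PSMB8, an immunoproteasome subunit, rose by 0.58. MAPKAPK5-AS1 (0.16), ZEB1-AS1 (0.19) and VPS9D1-AS1 (0.05) were not called. MAPKAPK5-AS1 was called higher without HMU replicate 3 (0.24), and on TPM values MAPKAPK5-AS1 and VPS9D1-AS1 were called lower. Of the others on that list, TRAF3IP2-AS1 does not carry the lncRNA biotype in the table, and HIF1A-AS3, GATA3-AS1, EGFR-AS1, ADAMTS9-AS2 and RBM5-AS1 had mean counts below 30. LIF-AS2, also on it, is not analysed here.

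Members were also counted by the partner's symbol alone, in groups too small to set against the 24.8% of all genes called higher and the 24.9% called lower, and no difference between groups was tested. Members that reached the minimum through 1 group were not taken out of these counts, and their change goes with how they were chosen. Of 7 members beside immune and cytokine genes 3 rose (ELF3-AS1, IRF1-AS1 and CARD8-AS1) and 1 fell (HLA-F-AS1), while 5 of their 6 tested partners rose and 1 fell. ELF3-AS1 reached the minimum only in HMU. Of 16 members beside zinc finger genes none rose and 4 fell, and of their partners 4 rose and 8 fell. Of 10 members beside kinase and phosphatase genes none rose and 5 fell, among them MAP3K14-AS1 (-0.85), PRKAR2A-AS1 (-1.42) and PPP3CB-AS1 (-1.10), and of their partners 3 rose and 5 fell. MAP3K14 encodes the NF-kB-inducing kinase, PRKAR2A a regulatory subunit of protein kinase A and PPP3CB a catalytic subunit of calcineurin. Of 11 members beside transporters 2 rose and 4 fell, among them SLC2A1-AS1 (-0.88) beside the glucose transporter gene SLC2A1 (-0.51). Of 6 members beside ubiquitin-system genes none rose and 3 fell. Of 11 members beside homeobox, forkhead and related factors, a group whose symbol rule also takes in PAXIP1 and NRSN2, 2 rose and 3 fell. The rises were PAX8-AS1, which reached the minimum only in HMU, and HOXA-AS2, which stood just inside it, so they are given as a description. Both members beside matrix genes rose, MMP25-AS1 (1.03) and THBS3-AS1 (1.00), and 1 of 3 beside RNA-binding genes fell.

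Changes of the ratio were counted by gene arrangement, without a test between arrangements. Among 116 tested head-to-head pairs the ratio rose in 8 and fell in 38, with a median log2 change of -0.35. Among 43 tail-to-tail pairs it rose in 5 and fell in 18, with a median of -0.57. Among 28 antisense genes inside their partner it rose in 7 and fell in 4, with a median of 0.09. These rises include PAX8-AS1 and TFAP2A-AS2, which reached the minimum count only in HMU. Such members were not taken out of the counts of any arrangement. Among 10 pairs with the partner inside the antisense gene the ratio rose in 4 and fell in 1, with a median of 0.35. The median change of the antisense RNA itself was -0.28, -0.53, 0.24 and 0.04 in these 4 classes. Antisense and partner changes had a Spearman rho of 0.26 among head-to-head pairs and 0.07 among tail-to-tail pairs. It was 0.32 for antisense genes inside their partner and 0.64 in the 10 pairs with the partner inside. With head to head limited to starts within 500 bases, its rho was 0.13. The kit keeps strand information, but no source used here says whether counting used it, and reads of overlapping exons cannot then be assigned to 1 gene of a pair. In GENCODE 29, less than 10% of the antisense exon length overlapped partner exons in 122 of the 188 tested pairs with known exons, and there the ratio rose in 17 and fell in 41. In the other 66 it rose in 9 and fell in 19.

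**Figure D5:**
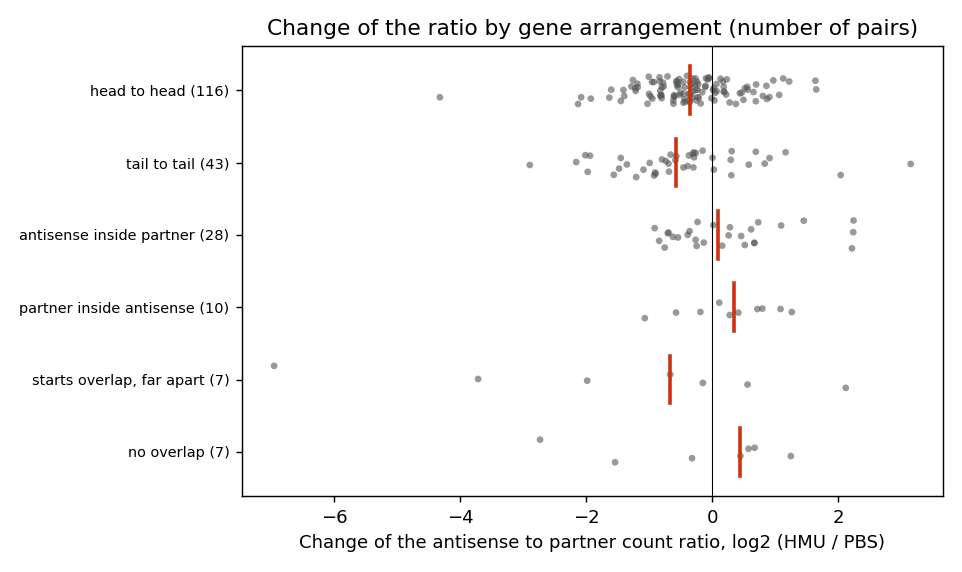
Change of the antisense to partner count ratio between HMU and PBS on the log2 scale (horizontal axis) for tested pairs in 6 gene arrangements, with 1 point per pair, scattered vertically for legibility, and a bar at each median. The medians are -0.35 for head-to-head and -0.57 for tail-to-tail pairs and 0.09 for antisense genes inside their partner; the point at the far left is TRIM31-AS1, a fitted value.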

How the data were processed

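Total RNA (RNeasy) was made into TruSeq Stranded mRNA libraries, per the labels' protocols. Per the submitters' processing notes, the tools were HISAT2 2.1.0 and StringTie 2.1.3b, with Trimmomatic 0.38 and FastQC 0.11.7, and the build was GRCh38. The authors deposited 1 table with read counts, FPKM and TPM per gene and sample; no source used here states strand use in counting. FPKM as deposited was not used. TPM as deposited was used for levels and for 2 alternatives. Deposited counts were fitted over the whole table with edgeR 4.0.16 in R 4.3.3: filterByExpr by group (17990 of 46427 genes kept), TMM factors, quasi-likelihood test with default settings, Benjamini-Hochberg adjustment over all genes tested and a threshold of 0.05. Pair ratios were tested with the log of partner count plus 0.5 as offset, over all 367 tested pairs. CPM are on the TMM scale except in the marker sums, and intervals after ± are SE for fold changes. Tests were also run on simulated counts with a constant dispersion, few changed genes, as many rises as falls, and no partner near 0 counts. That setting is simpler than these libraries, so it cannot vouch for the tests here. limma 3.58.1 and DESeq2 1.42.0 served as alternatives. The members and lists were chosen with earlier results of these data known. Named genes were the 8 largest called rises and the 8 largest called falls without overlap, the 5 members of highest TPM, the 5 largest called rises and the 5 largest called falls of the ratio, up to 8 opposite pairs, and a list read whatever its values. Columns headed HMO were taken as the HMU samples of the same number, the only treated samples in the labels. Promoters were found in RefSeq for 198 members and 203 partners, and positions for all 239 members. A further leukocyte marker is not reported here.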

Additional observations from a re-analysis of the deposited data

How the results depend on the processing

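Depth limits ELF3-AS1, UCKL1-AS1, TFAP2A-AS2 and TPRG1-AS1, which rest on few counts in 1 group. DESeq2 gave 28 members higher and 79 lower, and an edgeR fit with its newer dispersion method, an alternative chosen after seeing the data, gave 28 and 84. Replicate numbers did not pair the samples (correlations of deviations of -0.019, 0.035 and 0.048 for equal numbers). With the replicate block, 27 members were higher and 74 lower and the ratio rose in 30 pairs and fell in 62, TBC1D8-AS1 was not called, and EPB41L4A-AS1 was at -0.00287.

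Members called higher and lower numbered 18 and 139 on log2(TPM + 1), 18 and 136 on log2(TPM + 0.1), and 10 and 46 of the 114 with a mean count of at least 100. Partners called higher and lower numbered 35 and 88 by library size alone, 24 and 102 on log2(TPM + 1), and 24 and 101 on log2(TPM + 0.1). Members without overlap and higher numbered 24 by library size alone. The median of members was -0.52 by library size alone, -0.35 and -0.64 on the respective TPM scales, and -0.26 at a mean count of at least 100. Leaving out 1 library gave 23 to 35 members higher, 63 to 89 lower, ratios higher in 22 to 37 pairs and lower in 44 to 69, and a median of -0.25 to -0.19. The signs of members near 0 turned with the scale. By library size alone, on log2(TPM + 1) and on log2(TPM + 0.1), the log2 fold changes were -0.16, -0.28 and -0.28 for THAP9-AS1, -0.16, -0.29 and -0.30 for FGD5-AS1, -0.28, -0.39 and -0.40 for EPB41L4A-AS1, and -0.17, -0.27 and -0.29 for NUTM2A-AS1. They were -0.19, -0.24 and -0.31 for TRIM31-AS1, -0.0876, -0.16 and -0.22 for ZEB1-AS1, -0.12, -0.32 and -0.34 for MAPKAPK5-AS1, -0.0644, -0.13 and -0.17 for PSMB8-AS1, and -0.23, -0.33 and -0.36 for VPS9D1-AS1. On the TPM scales AGAP2-AS1 was at -0.11 and -0.14 and PTGES2 at -0.0680 and -0.0693, and with limma-voom EPB41L4A-AS1 was at -0.00547. With 1 library left out, the ratio of ELF3-AS1 to ELF3 ranged from -4.90 to 8.32, EPB41L4A-AS1 from -0.11 to 0.13, AGAP2-AS1 from -0.0926 to 0.53, TRIM31-AS1 from -0.11 to 0.19 and VPS9D1-AS1 from -0.13 to 0.14. The cause of these shifts was not tested.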

Other observations

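Of 20 other lncRNAs listed from inflammation, stress or epithelia, 18 were tested, and 9 rose (50%) and 3 fell (16.7%). The shares were 24.8% and 24.9% over all genes tested and 16.8% and 23.3% over lncRNAs. The list is small and no difference from those shares was tested. DANCR, GAS5, MIR22HG, CYTOR, LINC00941 and PACERR were not called, and LUCAT1 and MIR3142HG did not pass the filter on low counts. MIR155HG, the host gene of an inflammatory microRNA, had 0.155, 0.112 and 0.0277 CPM in PBS and 0.810, 0.783 and 0.693 CPM in HMU, a log2 fold change of 2.93 (edgeR adjusted p = 0.000857). LINC-PINT went from 1.38, 1.45 and 1.32 CPM to 3.15, 3.18 and 3.30 CPM, and CCAT1 from 1.44, 2.00 and 1.61 CPM to 4.15, 3.43 and 4.88 CPM. NKILA, known as an NF-kB-interacting lncRNA, rose by 0.39. Of the 3 that fell, MIR210HG, the host gene of a hypoxia-induced microRNA, went from 6.36, 6.20 and 6.57 CPM to 2.01, 2.78 and 1.53 CPM, a log2 fold change of -1.60. TINCR, an RNA of keratinocyte differentiation, went from 37.0, 38.8 and 40.9 CPM to 21.8, 21.8 and 20.8 CPM, and NEAT1, the scaffold of paraspeckles, from 527, 547 and 513 CPM to 305, 317 and 326 CPM. The falls of TINCR and NEAT1 were 0.86 and 0.74 on the log2 scale.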
